A study of Mus musculus with 8 samples.

Results

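The 36 genes described here are NRF2 with its sensor KEAP1, targets of NRF2, enzymes that make, reduce or use glutathione, the peroxiredoxins and superoxide dismutases, catalase, and enzymes that supply NADPH. They were chosen by gene symbol, and all 36 were found among the 16888 genes of the deposited table. RNA from whole pancreas was sequenced in 8 mouse samples. The 4 CKO samples came from animals lacking Anxa1 in myeloid cells, and the 4 WT samples from animals whose Anxa1 alleles were floxed but intact (Anxa1 flox/flox). Both groups had received repeated injections of cerulein, which overstimulates acinar cells and causes acute pancreatitis. Pancreas without cerulein was not analysed here. The labels name neither the promoter that drove the deletion nor the strain, age, cerulein dose or time of sampling, and do not say whether each sample was a separate animal. The p-values therefore measure the spread between these samples, which may be technical.

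NRF2, encoded by Nfe2l2, is a transcription factor that KEAP1 normally holds in the cytosol and marks for destruction by the CUL3 ubiquitin ligase. Oxidants and electrophiles modify KEAP1, NRF2 then accumulates, pairs with a small MAF protein and binds antioxidant response elements in genes for glutathione synthesis, thioredoxin recycling and NADPH supply. The abundance of NRF2 protein is thus set largely after translation, and its transcript level alone does not give its activity. In pancreatitis, acinar cells and infiltrating leukocytes both produce oxidants, and glutathione is the main soluble thiol that buffers them.

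Levels are in RPKM, reads scaled to the length of the gene and the total of the library. A library is named by its group and replicate number, as in CKO1 or WT1. Library totals ran from 30469002 to 34359802 reads. Anxa1 itself was at 5.48 ± 1.11 RPKM in CKO and 9.98 ± 3.33 RPKM in WT (SD, n = 4), a log2 change of -0.73 (SE 0.19, limma adjusted p = 0.0417), with CKO4 at 7.13 just above WT3 at 7.05. That call was kept on leaving out CKO4 or WT3 and ended on leaving out any of the other 6 libraries (adjusted p of up to 0.108), as it did under median centring and on removal of the length trend. The tissue label was borne out by the acinar markers, of which 19 of 19 averaged at least 1 RPKM, and 16 digestive enzymes took 49.2 ± 3.70% of reads in CKO and 47.3 ± 1.22% in WT (exact two-sided permutation p = 0.343). Library WT2 stood apart in its content of other cells: adipocyte markers summed to 183 RPKM there against 24.2 to 44.7 in the other 7 libraries, and B and plasma cell markers to 13.2 against 0.142 to 4.54. Macrophage markers (13 of 14 averaging at least 1 RPKM) summed to 207 to 409 RPKM in CKO and 371 to 700 in WT. Neutrophil markers (7 of 10) summed to 15.8 to 53 RPKM in CKO and 41.2 to 87.9 in WT, with Elane under 0.1 RPKM in every library. Each result is therefore also given without WT2 where its omission changed the call.

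The 36 genes differed widely in level. Nqo1 (0.16 to 0.795 RPKM) and the transferase Gsta4 (0 to 0.748 RPKM) lay below 1 RPKM in every library, and the other 34 passed the filter of at least 1 RPKM in at least 4 libraries. All 34 lay above the median level of the 8513 genes that passed, at a median level percentile of 86.4. Gclc, the catalytic subunit of the enzyme that commits cysteine to glutathione, was the most abundant at 191 to 436 RPKM, while its modifier subunit Gclm was at 5.81 to 11.7 RPKM. Srxn1, Gstp1, Txn1, Prdx1, Gpx1 and Sod1 each exceeded 50 RPKM in every library. Together the 36 genes took 0.245% to 0.322% of reads in CKO and 0.305% to 0.424% in WT.

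**Figure D1:**
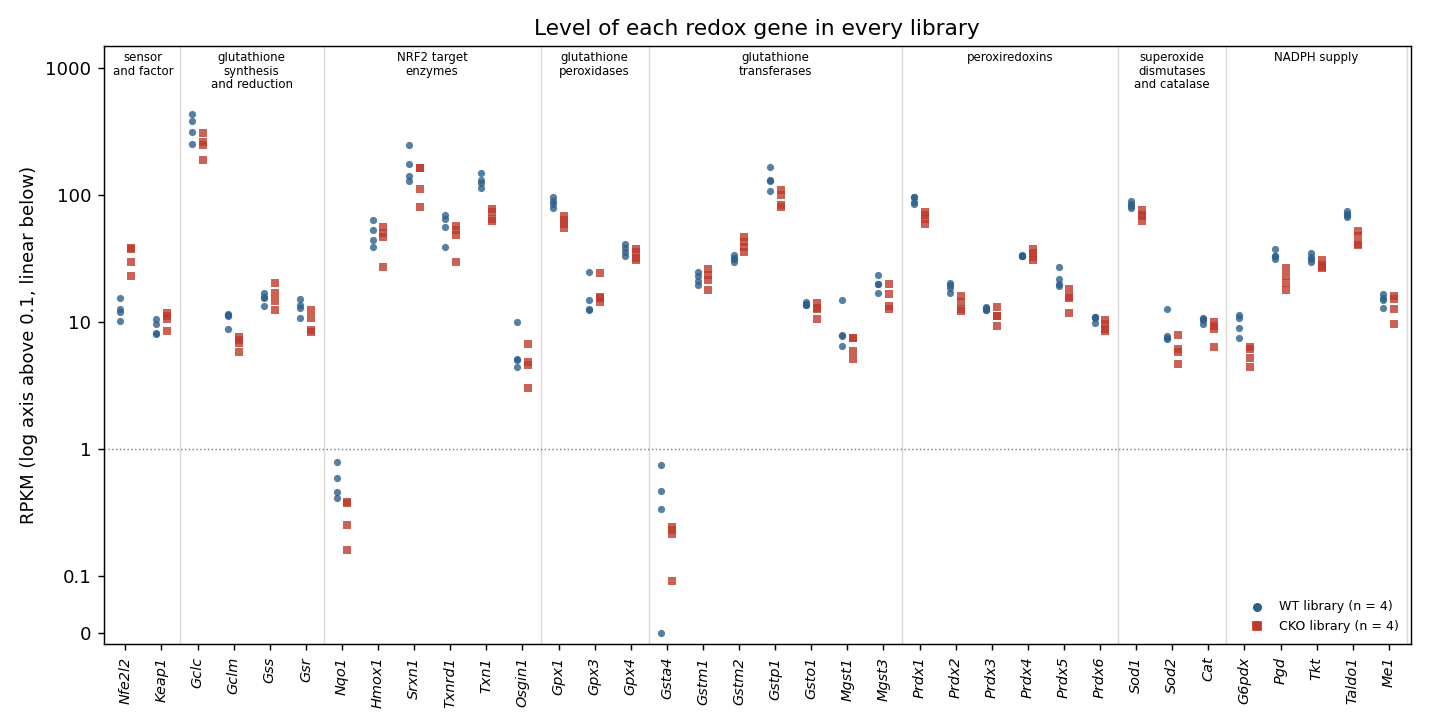
Level of all 36 genes in each of the 4 WT (blue circles) and 4 CKO (red squares) libraries, in RPKM on an axis that is logarithmic above 0.1 and linear below, grouped by role. Gclc reaches 436 RPKM, Nqo1 and Gsta4 stay under the dotted line at 1 RPKM, and Nfe2l2 is the gene whose CKO libraries lie farthest above its WT libraries.

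The transcript of NRF2 rose in CKO, while 8 of the other members fell. Of the 34 members tested, 1 was higher, 8 were lower and 25 did not pass (limma on log2 of RPKM plus 1, Benjamini-Hochberg adjusted p under 0.05 over all genes), against 7.17% of all 8513 genes tested in either direction, 1.42% higher and 5.74% lower. The higher gene was Nfe2l2. The lower genes were thioredoxin (Txn1), 3 enzymes of the pentose phosphate pathway (Taldo1, Pgd and G6pdx), Gclm, the glutathione peroxidase Gpx1, and the peroxiredoxins Prdx1 and Prdx2. The median log2 change of the 34 genes was -0.29 and that of all genes was -0.12, and 26 of the 34 lay below the latter. In 10 of the 34 all CKO libraries lay below all WT libraries, as did 16.2% of all genes, and in 2 they lay above, as did 2.46%. In these samples of whole tissue, fewer cells of a type and less RNA per cell cannot be told apart.

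How many genes were higher and how many lower depended on the scaling. Centring each library on its median moved the median change of all genes from -0.12 to -0.02 and the calls from 121 higher and 489 lower to 305 higher and 267 lower. Under that scaling 1 member was higher and 5 were lower, against 6.72% of all genes in either direction, 3.58% higher and 3.14% lower, so the changes of the members that passed are given below also relative to the median of all genes. Nfe2l2 rose, and Txn1, Taldo1, Pgd, G6pdx and Gclm fell, under both scalings and with library totals that left out acinar enzymes.

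Single libraries also weighed on the count. Without WT2, 1 member was higher and 6 were lower, against 3.18% of all genes in either direction, 0.822% higher and 2.36% lower. Gpx1, Prdx2 and G6pdx then missed the threshold and Gstp1 passed it. Without WT1, 1 was higher and 2 were lower, against 2.62% of all genes, 0.693% higher and 1.93% lower. The 3 that passed without WT1 were Nfe2l2, Txn1 and Taldo1, which passed without any other single library too.

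**Figure D2:**
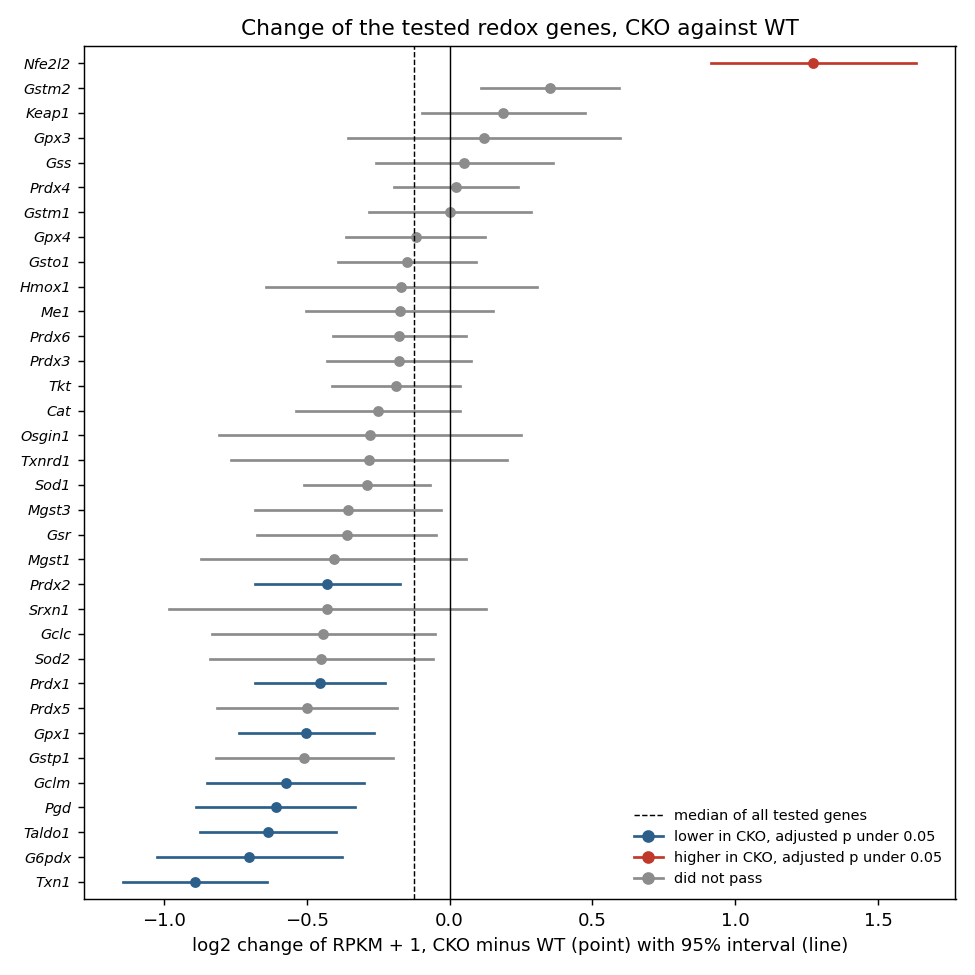
Log2 change of RPKM plus 1, CKO minus WT, for the 34 tested members, with 95% intervals as lines (n = 4 per group); red and blue mark genes past the threshold, and the dashed line is the median of all tested genes at -0.12. Nfe2l2 stands apart at 1.27, and the 8 lower genes lie between -0.89 and -0.43.

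Gene length moved with the changes. The 34 members were short, with a median length of 1802 bases against 3169 bases for all tested genes, as recovered from the deposited values. Over all tested genes the median log2 change ran from -0.26 for those up to 1 kb, through -0.20, -0.16 and -0.11 for the next 3 bins of 1 kb, to -0.05 for those over 4 kb. The trend on length was then removed from each library, which also took out the overall offset of the library, much as median centring does. The median change of all genes moved from -0.12 to -0.0087, so the effect of this setting is not that of length alone. With the trend removed, 6 members passed, 2 higher and 4 lower, against 6.95% of all genes in either direction, 4.11% higher and 2.83% lower. Nfe2l2 and Gstm2 were then higher and Txn1, Taldo1, Pgd and G6pdx lower, while Gclm, Gpx1, Prdx1 and Prdx2 missed the threshold. The log2 change of Gclm was then -0.41, that of Gpx1 -0.27, that of Prdx1 -0.25 and that of Prdx2 -0.22. Gpx1, Prdx1 and Prdx2, but not Gclm, also missed the threshold under median centring alone. Among members that passed neither in the main fit nor with the length trend removed, Gstp1 moved to -0.27 with it removed, Prdx5 to -0.29 and Sod1 to -0.039.

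**Figure D3:**
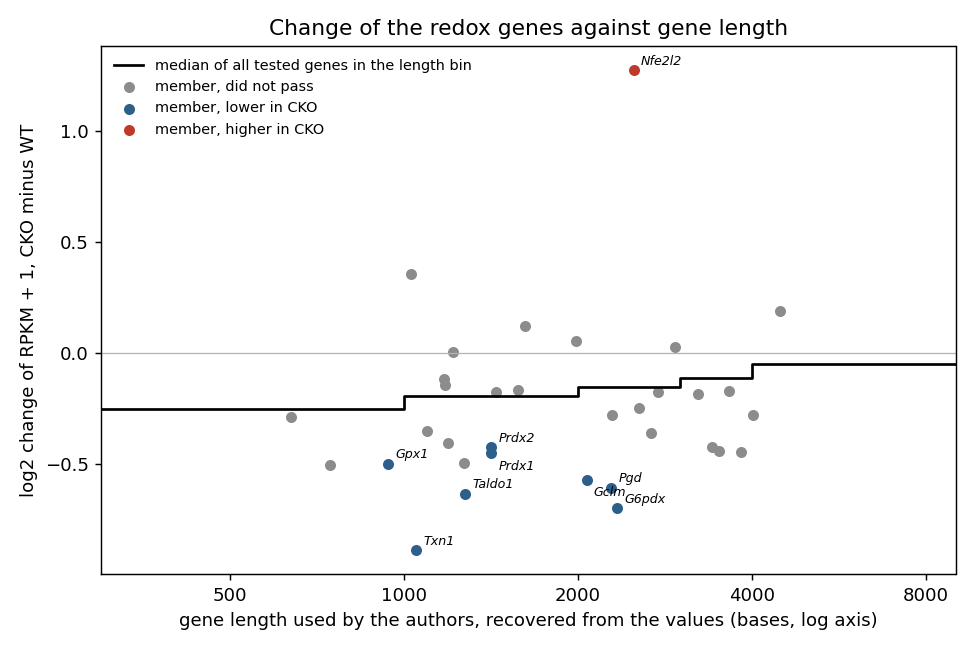
Log2 change of the 34 tested members against the gene length used by the authors, recovered from their values (log axis, bases), with the median of all tested genes per length bin as a stepped line. The line climbs from -0.26 to -0.05, and the 8 lower members and Nfe2l2 lie below and above it, respectively.

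Antioxidant response elements were looked for in the promoters of the members, since NRF2 acts through them. RefSeq promoter sequences of build GRCm38.p6, 250 bases before to 50 bases after each start site, were at hand for 31 of the 36 genes. The core element TGACNNNGC was searched on both strands. It stood in a promoter of 10 of the 31 members (32.3%), against 17.2% of all tested genes with a promoter sequence. Counted by promoter, 10 of the 40 promoters of the members held it, against 12.4% of all 32851 promoters of that length. Of the 8 lower members 4 held it, and so did Nfe2l2. With an A required as the next base, 2 of the 31 members (6.45%), Pgd and Txnrd1, held it, against 3.09% of all tested genes with a promoter sequence. The matches of Nfe2l2 and the 4 lower genes, with that of the NRF2 target Txnrd1, are shown with 10 bases on each side, read 5′ to 3′ on the strand that holds the element, which is in capitals.
Nfe2l2: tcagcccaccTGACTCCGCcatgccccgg
Gclm: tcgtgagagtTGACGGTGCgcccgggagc
G6pdx: gcgtgtgcttTGACTGAGCtgacccgcct
Pgd: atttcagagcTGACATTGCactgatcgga
Prdx1: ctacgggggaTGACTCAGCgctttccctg
Txnrd1: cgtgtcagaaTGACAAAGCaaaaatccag

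These windows lie at chr2:75704885-75704913 (minus strand) for Nfe2l2, chr3:122245413-122245441 (minus) for Gclm, chrX:74428919-74428947 (plus) for G6pdx, chr4:149166061-149166089 (minus) for Pgd, chr4:116685456-116685484 (minus) for Prdx1 and chr10:82859104-82859132 (minus) for Txnrd1. Counted from the start site, with bases before it negative, the element lay at -240 to -232 in Nfe2l2, -134 to -126 in Gclm, -57 to -49 in G6pdx, -133 to -125 in Prdx1 and -92 to -84 in Txnrd1. In Pgd it lay at 4 to 12, after 1 of 2 annotated start sites, and in Txnrd1 it was found at 1 of 3. Both of these start sites lie inside the annotated gene. The promoter at the outermost start site of Pgd, and that of Txnrd1, held no element. In Prdx1 the element overlaps TGACTCA, the site of the AP-1 factors FOS and JUN, whose motif the NRF2 element resembles. A match is a run of letters in this window and was not measured as a bound site.

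Nfe2l2 (chromosome 2, 75675513 to 75704641, minus strand of mm10) was at 23.3, 37.5, 38.5 and 29.9 RPKM in CKO1 to CKO4 and at 15.4, 10.3, 12.8 and 12.1 RPKM in WT1 to WT4. Every CKO library was well above every WT library. On average the transcript rose 2.55-fold, from 12.6 ± 2.11 to 32.3 ± 7.11 RPKM (log2 change of 1.27 with SE 0.17, adjusted p = 0.0011), or 1.40 relative to the median of all genes. It passed in all 16 other settings tried, with log2 changes of 1.18 to 1.42 and adjusted p of 0.000162 to 0.00955. Keap1, the sensor (chromosome 9, 21229730 to 21239361, minus strand), was at 8.61, 11.3, 11.8 and 10.7 RPKM in CKO and 9.77, 8.23, 10.7 and 8.1 RPKM in WT. Its groups overlapped, and its log2 change of 0.19 (95% interval -0.096 to 0.47, adjusted p = 0.374) did not pass.

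Among 12 tested genes that regulate NRF2 or pair with it, 2 rose and 0 fell, against 1.42% of all genes that were higher (3.58% under median centring). Both were small MAF proteins, the partners with which NRF2 binds DNA. Maff was at 4.42, 5.99, 7.13 and 6.8 RPKM in CKO and at 1.85, 1.82, 2.33 and 2.69 RPKM in WT. It rose 2.8-fold (log2 change of 1.15 with SE 0.15, adjusted p = 0.0011) and passed in all 16 other settings. Mafk was at 3.44, 3.51, 3.64 and 4.37 RPKM in CKO against 1.94, 2.05, 2.19 and 2.48 RPKM in WT. It rose 1.73-fold (log2 change of 0.58 with SE 0.11, adjusted p = 0.0141), with no overlap, and missed the threshold only without WT1 (0.0527, with a range of 0.0113 to 0.0527 over all settings). A further small MAF gene, Mafg, was at 4.42 ± 0.91 against 3.19 ± 0.332 RPKM with overlapping groups. Its log2 change of 0.36 did not pass (adjusted p = 0.12), but did so under median centring (0.0302) and without CKO1 (0.0403). Small MAF proteins also pair with other partners, among them BACH1, a repressor of the same elements. Bach1 was at 10.8 ± 1.42 RPKM in CKO and 11.1 ± 2.08 RPKM in WT (adjusted p = 0.942). Sqstm1, whose protein p62 sequesters KEAP1 and which is itself an NRF2 target, was at 288 ± 72.5 against 289 ± 92.5 RPKM (adjusted p = 0.977). Mafg, Bach1 and Sqstm1 were picked after their values were seen.

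**Figure D4:**
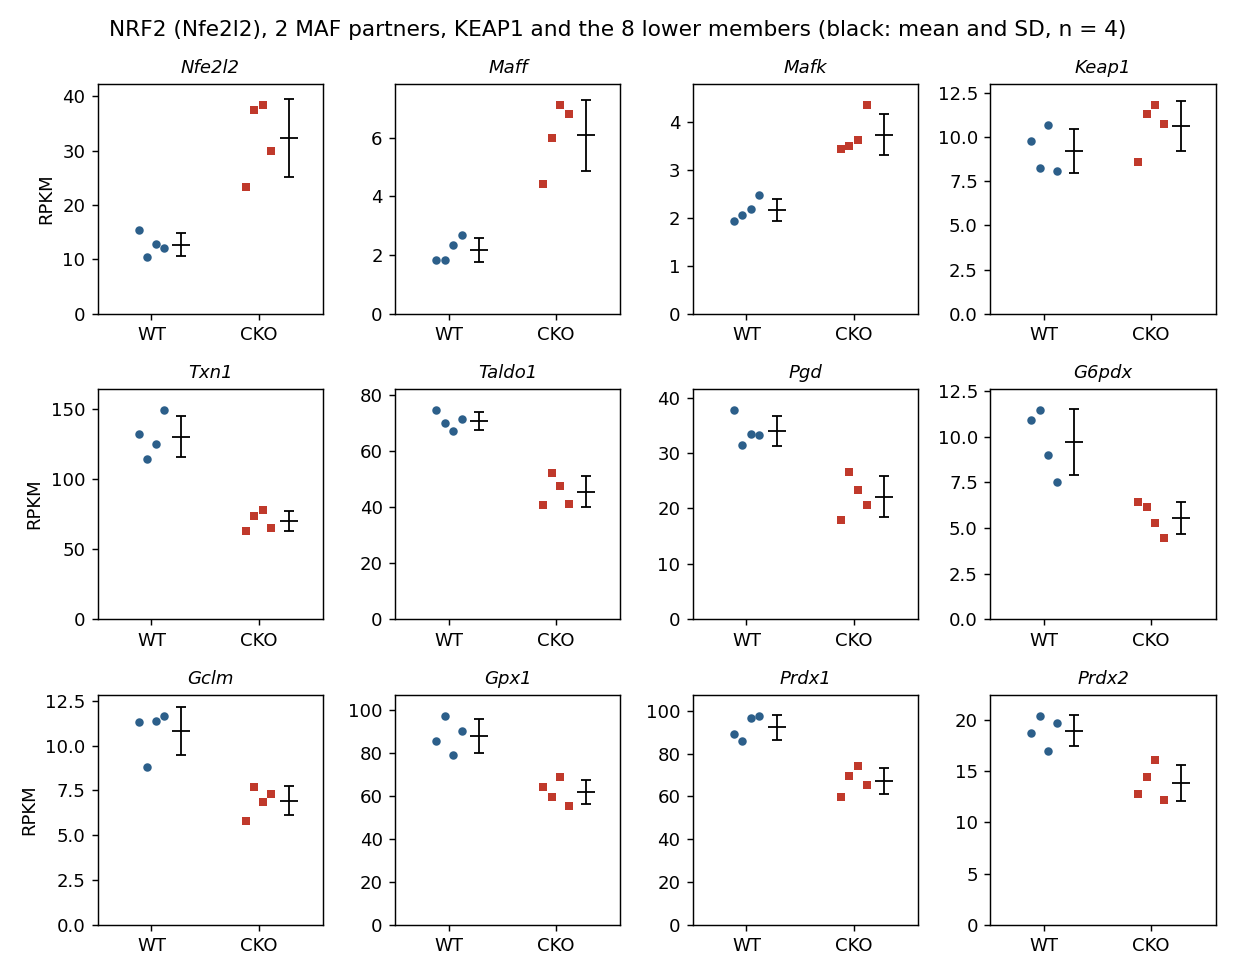
RPKM of Nfe2l2, the small MAF genes Maff and Mafk, Keap1 and the 8 lower members in each WT (blue) and CKO (red) library, with the mean and SD of each group in black (n = 4) and axes from 0. The groups are apart in all panels except Keap1, with CKO above WT for Nfe2l2, Maff and Mafk and below it for the other 8.

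Among the 6 members grouped here as NRF2 target enzymes, 1 fell, 4 did not pass and 1 was below the filter, against 5.74% of all genes that were lower. Txn1, the cytosolic thioredoxin that reduces protein disulfides (chromosome 4, 57943373 to 57956411, minus strand), was at 62.6, 73.5, 77.9 and 65.2 RPKM in CKO1 to CKO4. In WT1 to WT4 it was at 132, 115, 125 and 149 RPKM, so every WT library was above every CKO library. Txn1 fell by 0.89 on the log2 scale (69.8 ± 7.12 against 130 ± 14.6 RPKM, SE 0.12, adjusted p = 0.0011). Its change was -0.77 relative to the median of all genes, and it passed in all 16 other settings (log2 changes of -0.95 to -0.67, adjusted p of 0.000993 to 0.0102). Whether reads of processed pseudogenes were counted with it was not tested.

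Txnrd1, the reductase that recharges thioredoxin, did not pass. It was at 29.7, 53.8, 48.5 and 57.9 RPKM in CKO and 69.7, 39.1, 65.3 and 55.8 RPKM in WT, with overlapping groups (log2 change of -0.28, 95% interval -0.77 to 0.20, adjusted p = 0.432). Without CKO1 its change was -0.076. Srxn1, sulfiredoxin, which repairs overoxidized peroxiredoxins, was at 80.8, 163, 112 and 165 RPKM in CKO and 248, 141, 176 and 130 RPKM in WT. Its spread within each group was wide, and its log2 change of -0.43 (95% interval -0.98 to 0.13) did not pass (adjusted p = 0.298) and was -0.22 without CKO1. Hmox1, heme oxygenase, which degrades heme and is abundant in macrophages, was at 27.3, 50.8, 47.3 and 56.6 RPKM in CKO and 53.7, 39.1, 44.9 and 63.7 RPKM in WT. CKO1 was the lowest library for Hmox1, Srxn1 and Txnrd1 alike, and it was also the lowest for the macrophage and neutrophil marker sums. This was not particular to these genes. CKO1 was the lowest library for Txn1, Taldo1, Pgd, Gclm and Prdx1 too, though not for Gpx1, Prdx2 or G6pdx. It also had the fewest genes at or above 1 RPKM (7988). The part of macrophages and neutrophils in these values was not tested. The Hmox1 log2 change was -0.17 (95% interval -0.64 to 0.31, adjusted p = 0.646), and 0.054 without CKO1.

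Osgin1, an oxidative stress induced growth inhibitor, was at 3.03, 4.87, 4.62 and 6.79 RPKM in CKO and 5.02, 4.45, 5.16 and 10.1 RPKM in WT. Its log2 change was -0.28 (95% interval -0.81 to 0.25, adjusted p = 0.476), and -0.049 without WT4. Nqo1, a quinone reductase and the most used reporter of NRF2 activity, was scarce, at 12, 19, 29 and 26 reads in CKO and 32, 29, 41 and 53 reads in WT. That made 0.294 ± 0.108 against 0.567 ± 0.172 RPKM. All 4 CKO libraries lay below the lowest WT library in RPKM, and with no filter on low values the log2 change was -0.27 (adjusted p = 0.144).

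In glutathione synthesis and reduction, 1 of 4 members fell, against 5.74% of all genes that were lower. Gclm, the modifier subunit of glutamate-cysteine ligase (chromosome 3, 122245557 to 122270732, plus strand), was at 5.81, 7.71, 6.87 and 7.27 RPKM in CKO and 11.3, 8.79, 11.4 and 11.7 RPKM in WT. Every CKO library was below WT2, which was itself the lowest WT library. Gclm fell by 0.57 on the log2 scale (SE 0.13, adjusted p = 0.0233), and its change was -0.45 relative to all genes. Its call ended on leaving out WT1 (adjusted p = 0.0716), WT3 (0.0574) or WT4 (0.0585) and on removing the length trend (0.0595). Over all settings the adjusted p ran from 0.0193 to 0.0716.

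The catalytic subunit Gclc was at 264, 309, 191 and 249 RPKM in CKO and at 436, 253, 384 and 313 RPKM in WT. CKO1 and CKO2 lay above WT2, and its log2 change of -0.44 (95% interval -0.83 to -0.051) did not pass (adjusted p = 0.139). Gsr, which reduces oxidized glutathione with NADPH, was at 10.1 ± 1.89 against 13.2 ± 1.89 RPKM (log2 change of -0.36, adjusted p = 0.133). Gss, which adds glycine in the last step of glutathione synthesis, was at 16.2 ± 3.34 against 15.4 ± 1.47 RPKM (log2 change of 0.051, 95% interval -0.26 to 0.36, adjusted p = 0.847).

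The genes grouped here as NADPH supply held the most calls, with 3 of 5 lower, against 5.74% of all genes that were lower (3.14% under median centring). Taldo1, transaldolase of the pentose phosphate pathway (chromosome 7, 141392199 to 141402968, plus strand), was at 40.8, 52.3, 47.7 and 41.1 RPKM in CKO and 74.7, 69.9, 67.2 and 71.6 RPKM in WT. Its groups were far apart relative to their spread, and it fell by 0.64 on the log2 scale (SE 0.11, adjusted p = 0.00808), or -0.51 relative to all genes. It passed in all 16 other settings (adjusted p of 0.00486 to 0.0326).

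Pgd, which makes NADPH downstream of G6pdx (chromosome 4, 149149991 to 149166771, minus strand), was at 17.9, 26.6, 23.3 and 20.6 RPKM in CKO and 37.8, 31.4, 33.4 and 33.2 RPKM in WT. It fell by 0.61 on the log2 scale (SE 0.13, adjusted p = 0.0186), -0.48 relative to all genes, and missed the threshold only without WT1 (0.064, with a range of 0.0144 to 0.064). G6pdx, the first and rate-limiting enzyme of the pathway (chromosome X, 74409483 to 74429194, minus strand), was at 6.39, 6.12, 5.26 and 4.47 RPKM in CKO and 10.9, 11.5, 8.97 and 7.5 RPKM in WT. All CKO libraries were below WT4, the lowest of WT. Its log2 change was -0.70 (SE 0.15, adjusted p = 0.0197), or -0.58 relative to all genes, and the call ended without CKO4 (0.0525), WT1 (0.0638) or WT2 (0.0519), within a range of 0.00996 to 0.0638.

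The other 2 NADPH genes did not pass. Tkt, transketolase, was at 28.3 ± 1.89 against 32.4 ± 2.39 RPKM (log2 change of -0.19, 95% interval -0.41 to 0.036, adjusted p = 0.26). Me1, cytosolic malic enzyme, was at 13.4 ± 2.86 against 15.1 ± 1.56 RPKM (log2 change of -0.17, adjusted p = 0.474). In the further list of NADPH sources, 1 of 14 tested genes fell and 0 rose, a share close to the 7.17% of all genes that passed either way. The gene was Idh1, the cytosolic isocitrate dehydrogenase, at 8.93, 9.32, 7.18 and 11.3 RPKM in CKO and 15, 13, 19.2 and 20.6 RPKM in WT (log2 change of -0.81 with SE 0.16, adjusted p = 0.0154). Idh1 kept its call without any single library and lost it with median centring (0.0546) and with the length trend removed (0.0638), within a range of 0.00989 to 0.0638.

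Of the 3 glutathione peroxidases, which reduce peroxides at the expense of glutathione, Gpx1 fell, against 5.74% of all genes that were lower. This cytosolic selenoenzyme (chromosome 9, 108338903 to 108340343, plus strand) was at 64, 59.6, 68.7 and 55.5 RPKM in CKO and 85.5, 97.5, 78.9 and 90.4 RPKM in WT, without overlap. Its log2 change was -0.50 (SE 0.11, adjusted p = 0.0222), or -0.38 relative to all genes. The call ended without CKO2 (0.0668), WT1 (0.06), WT2 (0.0649) or WT4 (0.054), under median centring (0.0506) and on removal of the length trend (0.06), within a range of 0.0187 to 0.0668. Gpx4, which protects membrane lipids and restrains ferroptosis, was at 34.3 ± 3.22 against 37.3 ± 3.62 RPKM (log2 change of -0.12, 95% interval -0.36 to 0.13, adjusted p = 0.521). The secreted Gpx3 was at 17.6 ± 4.66 against 16.4 ± 5.88 RPKM (log2 change of 0.12, 95% interval -0.35 to 0.60, adjusted p = 0.753), with CKO3 at 24.5 and WT2 at 25 RPKM.

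Peroxiredoxins reduce hydrogen peroxide with electrons from thioredoxin, and 2 of the 6 fell, against 5.74% of all genes that were lower. Prdx1, which is cytosolic and an NRF2 target (chromosome 4, 116685544 to 116700822, plus strand), was at 59.8, 69.5, 74.3 and 65.5 RPKM in CKO and 89.2, 85.9, 96.6 and 97.8 RPKM in WT. The groups were separate (log2 change of -0.45 with SE 0.10, adjusted p = 0.0262), and the change was -0.33 relative to all genes. Prdx1 missed the threshold without CKO2, CKO4, WT1, WT3 or WT4 (0.0538 to 0.0691), under median centring (0.0519) and on removal of the length trend (0.0808), within a range of 0.0188 to 0.0808.

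Prdx2, a cytosolic form abundant in red cells (chromosome 8, 84969587 to 84974834, plus strand), was at 12.8, 14.4, 16.1 and 12.2 RPKM in CKO and 18.7, 20.5, 17 and 19.7 RPKM in WT (log2 change of -0.43 with SE 0.12, adjusted p = 0.0475). The change was -0.30 relative to all genes. Its call rested on all libraries but CKO3: it ended in the other 7 omissions (0.0643 to 0.121), with no filter (0.0742), median centring (0.0683), limma-voom (0.0693) and the length trend removed (0.106), within a range of 0.0309 to 0.121. Erythroid markers summed to 39 to 88.9 RPKM in CKO and 60.6 to 93.3 in WT (4 of 8 averaging at least 1 RPKM), and their part in Prdx2 was not tested.

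Prdx5, found in mitochondria and peroxisomes, was at 11.9, 15.7, 18.3 and 15.8 RPKM in CKO and 19.2, 27.4, 20.1 and 22 RPKM in WT. Its groups did not overlap, but it just missed the threshold (log2 change of -0.50, adjusted p = 0.0574) and passed without CKO3 (0.0387, with a range of 0.0387 to 0.165). The other 3 had smaller differences. The mitochondrial Prdx3 was at 11.3 ± 1.57 against 12.8 ± 0.42 RPKM (adjusted p = 0.348), and Prdx6, which also acts on phospholipids, at 9.37 ± 0.834 against 10.7 ± 0.54 RPKM (adjusted p = 0.309). Prdx4, the peroxiredoxin of the endoplasmic reticulum, was at 34.1 ± 2.9 against 33.5 ± 0.272 RPKM, with a log2 change of 0.024 (95% interval -0.19 to 0.24, adjusted p = 0.904).

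None of the 6 tested glutathione transferases, which couple glutathione to electrophiles, passed in either direction, although 3 of the 6 had an unadjusted p under 0.05, as did 17 of the 34 members tested and 27.3% of all genes. Gstp1, the pi class enzyme, was at 84.3, 109, 80.4 and 101 RPKM in CKO and 166, 109, 133 and 130 RPKM in WT (log2 change of -0.51, adjusted p = 0.0509). WT2 lay within the CKO range, and Gstp1 passed without it (0.0427, with a range of 0.0427 to 0.299). It has a near-identical neighbour, Gstp2, and its level is uncertain where reads were split between them.

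Gstm2, of the mu class, ran the other way, at 38.9, 42.9, 35.6 and 46.7 RPKM in CKO and 34.2, 29.8, 31.3 and 31.9 RPKM in WT. All CKO libraries were above all WT libraries. Its log2 change of 0.35 (SE 0.11) did not pass (adjusted p = 0.073), but did so without CKO3 (0.041) and with the length trend removed (0.019), within a range of 0.019 to 0.171. Its paralogue Gstm1 was at 22.3 ± 3.51 against 22.2 ± 2.4 RPKM (log2 change of 0.0015, 95% interval -0.28 to 0.29, adjusted p = 0.996). Mu class genes are alike in sequence, so both levels are uncertain.

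The remaining transferases overlapped between groups. Gsto1, of the omega class, was at 12.6 ± 1.49 against 14 ± 0.364 RPKM (adjusted p = 0.411), and the microsomal Mgst3 at 15.7 ± 3.4 against 20.2 ± 2.74 RPKM (adjusted p = 0.152). The microsomal Mgst1 was at 6.54 ± 1.22 against 9.34 ± 3.83 RPKM (adjusted p = 0.239), with 15 RPKM in WT2 and 6.55 to 7.97 RPKM in the other WT libraries. Its log2 change was -0.41, and -0.17 without WT2. That library had the highest sums of adipocyte, macrophage, B and plasma cell, erythroid, endothelial and fibroblast markers alike. The part of any of these cells in Mgst1 was not tested. Gsta4, of the alpha class, was at 8, 3, 7 and 7 reads in CKO and 0, 23, 14 and 10 reads in WT and was too scarce to compare. The count of 0 in WT1 allows up to 0.0983 RPKM.

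Neither the superoxide dismutases nor catalase passed, although 2 of the 3 had an unadjusted p under 0.05, as did 27.3% of all genes. Sod1, the cytosolic copper-zinc enzyme, was at 62.3, 69.5, 76.1 and 68.3 RPKM in CKO and 85.3, 82.8, 79.3 and 90.6 RPKM in WT. All CKO libraries were lower, by a log2 change of -0.29 (SE 0.10, adjusted p = 0.0926). The mitochondrial manganese enzyme Sod2, which inflammatory signals induce, was at 4.71, 5.79, 6.2 and 8 RPKM in CKO and 7.45, 12.7, 7.77 and 7.58 RPKM in WT (log2 change of -0.45, adjusted p = 0.132). Without WT2 the change was -0.28. That library, its highest, also had the highest macrophage marker sum, at 700 RPKM, and the highest sums for the other cell types named above for Mgst1. Their part in Sod2 was not tested. Cat, which breaks down hydrogen peroxide in peroxisomes, was at 6.44, 9.29, 8.79 and 10.1 RPKM in CKO and 10.6, 10.4, 10.8 and 9.73 RPKM in WT (log2 change of -0.25, 95% interval -0.54 to 0.038, adjusted p = 0.245).

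Genes around the 36 were read from the same comparison. Of 137 further redox genes in 6 lists 100 were tested, and of these 3 rose, 11 fell and 86 did not pass, against the 7.17% of all genes that passed either way. Their median log2 change was -0.20. In the list of further NRF2 targets 4 of 17 fell and 0 rose, against 5.74% of all genes that were lower. Ugdh, which makes UDP-glucuronate for conjugation, was at 9.39, 8.63, 9.9 and 8.33 RPKM in CKO and 20.8, 15.7, 16.6 and 19.3 RPKM in WT (log2 change of -0.92 with SE 0.12, adjusted p = 0.0011), and passed in all 16 other settings.

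The esterase Esd, which hydrolyses S-formylglutathione, was at 38.7 ± 6.9 against 63.2 ± 10.4 RPKM (log2 change of -0.70, adjusted p = 0.0221). It missed the threshold without CKO4 (0.0576), WT1 (0.0683) or WT4 (0.0594) and with no filter (0.0559), within a range of 0.0193 to 0.0683. The aldo-keto reductase Akr1b8 was at 40.8 ± 11.1 against 70.2 ± 10.3 RPKM (log2 change of -0.80, adjusted p = 0.0295), and passed in 3 of 8 omissions, those of CKO1, CKO3 and WT2, and in 6 of the 8 other settings, with an adjusted p of 0.0154 to 0.0793 over all 16.

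Ftl1, the ferritin light chain that stores iron, was at 634, 1041, 819 and 1118 RPKM in CKO and 1554, 1179, 1463 and 1803 RPKM in WT. Its groups did not overlap (log2 change of -0.75 with SE 0.18, adjusted p = 0.0309). The call ended without CKO3 (0.0575), WT1 (0.0796), WT3 (0.0663) or WT4 (0.0756), and likewise with no filter (0.0755), median centring (0.078) and removal of the length trend (0.116), within a range of 0.0269 to 0.116. Ferritin genes have many processed copies, so its level is uncertain.

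In the list of further glutathione enzymes 4 of 25 fell and 0 rose, against 5.74% of all genes that were lower, and 1 of the 4, Ggct, passed in every setting. Ggct, which releases oxoproline from gamma-glutamyl peptides in the breakdown of glutathione, was at 0.722, 1.38, 1.27 and 0.978 RPKM in CKO and 3.17, 3.87, 3.23 and 3.76 RPKM in WT. It fell by 1.12 on the log2 scale (SE 0.13, adjusted p = 0.000423) and passed in all 16 other settings, with a log2 change of -1.72 under limma-voom. Gpx2, an epithelial glutathione peroxidase, was at 2.04 ± 0.619 against 3.69 ± 0.27 RPKM (adjusted p = 0.0251), and missed the threshold without CKO4 (0.0704), WT1 (0.0716) or WT4 (0.054), with no filter (0.0542) and on removal of the length trend (0.0561, with a log2 change of -0.42), within a range of 0.018 to 0.0716.

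Gsta3, an alpha class transferase, was at 1.2 ± 0.3 against 2.1 ± 0.216 RPKM (adjusted p = 0.0316), and Glrx5, a mitochondrial glutaredoxin of iron-sulfur assembly, at 6.77 ± 0.914 against 9.64 ± 0.618 RPKM (adjusted p = 0.038). Gsta3 passed in 2 of 8 omissions, of CKO2 and WT3, with an adjusted p of up to 0.144 over all settings, and Glrx5 in 1 of 8, of CKO1, with up to 0.193. With the length trend removed the log2 change of Gsta3 moved from -0.50 to -0.31 and that of Glrx5 from -0.46 to -0.23. Chac1, a stress-induced enzyme that cleaves glutathione, was picked after its values were seen. It was at 276, 307, 254 and 394 RPKM in CKO and 233, 56.2, 173 and 141 RPKM in WT. Its groups did not overlap, but its log2 change of 1.18 (SE 0.39) did not pass (adjusted p = 0.0947). Without WT2 the change was 0.76 and passed (0.0455, with a range of 0.0455 to 0.174).

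Among the further thioredoxin genes 1 of 19 tested rose and 0 fell, a share below the 7.17% of all genes that passed either way. The share of all genes that were higher was 1.42% (3.58% under median centring). Txnip, which binds thioredoxin and blocks its active site, was at 150, 103, 139 and 172 RPKM in CKO and 78.6, 80.6, 66.8 and 72.8 RPKM in WT. All CKO libraries were higher, and Txnip rose 1.89-fold (log2 change of 0.89 with SE 0.15, adjusted p = 0.00569), with a call in all 16 other settings. Txn1, its binding partner, had a change of opposite sign in the same libraries (log2 change of -0.89). Relative to the median of all genes the changes were 1.01 for Txnip and -0.77 for Txn1.

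Among 13 tested sources of oxidants 2 fell and 0 rose, against 5.74% of all genes that were lower. Under median centring, where 3.14% of all genes were lower, both missed the threshold (adjusted p of 0.0539 for Cyba and 0.0545 for Noxa1). Cyba, the membrane subunit of NADPH oxidases in phagocytes and other cells, was at 12.9, 14.3, 17.8 and 13 RPKM in CKO and 22.6, 30.4, 17.2 and 23.3 RPKM in WT. CKO3 lay above WT3, and the log2 change was -0.64 (SE 0.16, adjusted p = 0.0362). Cyba passed in 2 of 8 omissions, those of CKO3 and WT3, and in 3 of 8 other settings, with an adjusted p of up to 0.0951 and a log2 change of -0.40 on removal of the length trend. The macrophage marker sum averaged 324 RPKM in CKO and 496 in WT and the neutrophil marker sum 34.3 and 66.5, with overlapping ranges, and their part in Cyba was not tested. Noxa1, an activator of non-phagocytic NADPH oxidase, was at 1.28, 1.79, 1.75 and 0.132 RPKM in CKO and 2.63, 4.3, 2.57 and 3.3 RPKM in WT (log2 change of -0.97 with SE 0.26, adjusted p = 0.0497). Noxa1 passed in 2 of 8 omissions, those of CKO3 and CKO4, and in 3 of 8 other settings, within a range of 0.0427 to 0.126. Its log2 change was -1.65 with a pseudocount of 0.1 and -1.82 under limma-voom, and missed the threshold in both.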

How the data were processed

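RNA from 8 pancreas samples was sequenced on an Illumina instrument, per the labels' protocols. The authors deposited 1 table of RPKM values without a unit in its header, and the unit was read from the numbers: of 16068 genes above 0 in at least 2 libraries, 16056 (99.93%) gave whole reads, within 0.05 reads, at 1 gene length and the library totals, all 36 members among them. The build was mm10, per the submitters' processing notes. Aligner, counter, annotation and filters were not given in the sources used here. In the file, 1 unnamed column of 8 numbers was not used.

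Genes were kept when 4 or more libraries reached 1 RPKM (8513 genes) and fitted in limma 3.58.1 (R 4.3.3) as log2 of RPKM plus 1, on group alone with trended, robust variances, and Benjamini-Hochberg adjustment over all of them (threshold 0.05). Fold changes are ratios of mean RPKM, and log2 changes understate those of low genes. On a gene of 1 kb 3 reads came to 0.0873 to 0.0985 RPKM, which was taken as the floor for a level and covers counting error only. Other steps ran in Python 3.11.15 with pandas 2.3.3, SciPy 1.17.1, NumPy 2.4.6 and Matplotlib 3.10.9, and gene positions were taken from GENCODE M21. On simulated data with 64 genes changed 1.5-fold the fit called 48.4% of them, and of 65 changed 2-fold it called 98.5%. It also called 8 unchanged genes. The simulation gave every gene the same dispersion, with no length trend and no difference in cell content. It therefore does not give the share that would be called among more variable genes, such as Chac1 (SE 0.39) or Srxn1 (SE 0.25).

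The members, the 6 further lists and the cell type markers were chosen with earlier results of these data known. Per-library values were given for members past the threshold, the 10 with the smallest unadjusted p, and Nfe2l2, Keap1, Nqo1, Hmox1, Gclc, Gclm, Srxn1, Txnrd1, Osgin1 and Cat. Those of Prdx5, Gstm2, Sod1, Sod2 and other genes outside this rule were added after their values were seen. Up to 4 genes past the threshold were named from each list. Other settings tried were a pseudocount of 0.1, no filter, variances without a trend, median centring, totals without acinar enzymes, limma-voom on the recovered reads, removal of the length trend, a block on replicate number, and omission of each library.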

Additional observations from a re-analysis of the deposited data

Results flagged for a closer look

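In each group of 4 libraries, a library was singled out when its gap to the nearest other, as a share of the group's range, exceeded Dixon's 95% value. Among the 72 groups of the 36 genes this picked 6, where chance alone picks about 1 in 20. Library WT2 accounted for 3 of them: Gclm at 8.79 RPKM against 11.3 to 11.7 in the other WT libraries, Mgst1 at 15 against 6.55 to 7.97, and Sod2 at 12.7 against 7.45 to 7.77. WT4 had Osgin1 at 10.1 RPKM against 4.45 to 5.16, and Prdx4 at 33.9 against 33.3 to 33.4, a gap that is small in size because the WT values of Prdx4 lay so close together. CKO3 had Gpx3 at 24.5 RPKM against 14.5 to 15.8 in the other CKO libraries.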

How the results depend on the processing

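The 9 members past the threshold became 3 to 11 when single libraries were left out, with 3 without WT1 and 5 without WT4. The 610 genes past it became 223 to 705, and the 14 further redox genes 5 to 14. Those 14 of 100 became 7 of 137 with no filter, 9 of 100 with median centring and 8 of 100 with the length trend removed. The shares of all genes that passed in these settings were 2.75%, 6.72% and 6.95%, against 7.17% in the main fit. Only Nfe2l2, Txn1 and Taldo1 among the members passed under every setting run. The replicate number as a block left 6 members (5 lower), without Gpx1 (0.0528), Prdx1 (0.0528) and Prdx2 (0.0719), and 548 genes in all. It left 14 further redox genes, without Esd (0.0528) and Cyba (0.0592). On the recovered reads limma-voom called 423 genes. The numbers were not shown to pair samples: deviations of same-numbered libraries correlated at -0.32 to 0.14, and 1 of 8 libraries correlated best with its own number. The digestive enzyme share stayed higher in CKO and past no threshold throughout (0.841 to 3.35 points without single libraries, 0.414 without trypsinogens).

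Signs turned only among members that did not pass. With the length trend removed Hmox1 was at 0.023, Gpx4 at 0.099, Gsto1 at 0.069 and Prdx3 at 0.024. Leaving out single libraries gave Gss from -0.060 without CKO3 to 0.16 (-0.011 without WT2), Hmox1 from -0.29 to 0.054 without CKO1, Gpx3 from -0.041 without CKO3 to 0.33, Prdx4 from -0.023 without CKO4 to 0.066, and Gstm1 from -0.075 without CKO4 to 0.10, with negative values also without CKO2, WT2 and WT3. The cause was not tested. Depth limits Nqo1 and Gsta4. Promoter elements were counted in 300 bases only, and 5 members had no sequence at hand.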
